A study of Mus musculus with 12 samples.

Results

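The comparison described here is the difference between 2 mouse strains in how bone marrow macrophages had changed 4 h after lipopolysaccharide (LPS). It uses 8 of the 12 arrays of the series, in 4 groups of 2 arrays. The groups were cells with kinase-dead IRAK4 (KD) after 4 h with LPS at 1 µg/ml, KD cells kept 4 h without stimulation, wild-type (WT) cells after 4 h with LPS at 1 µg/ml, and WT cells kept 4 h without stimulation. Fetal calf serum and medium conditioned by L-929 cells, a fibroblast line that secretes the macrophage growth factor M-CSF, were present in all cultures, with or without LPS. The labels call the 2 arrays of a group biological replicates and do not say whether they came from separate animals, so p-values measure the spread between these arrays. The quantity tested was the interaction, the KD response (LPS 4 h minus unstimulated) minus the WT response, on log2(signal + 4.4), where the signal is a MAS5 array intensity and 4.4 a pseudocount. It equals exactly the KD minus WT difference at LPS 4 h less the KD minus WT difference without stimulation, and this split was used to separate both sources. The other 4 arrays were KD and WT at LPS 1 h. They entered only the choice of probe sets, the estimate of the spread and a separate reading at that time.

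LPS, an outer membrane component of Gram-negative bacteria, binds Toll-like receptor 4, which signals through the adaptor MyD88 and, from endosomes, through the adaptor TRIF. IRAK4 is a serine/threonine kinase that joins MyD88 and other IRAK kinases in a complex at the receptor and is known for its role in activating NF-κB and MAP kinases downstream. In macrophages the MyD88 arm is known for inflammatory cytokine genes, and the TRIF arm for interferon-beta and interferon-induced genes. The kinase-dead protein lacks catalytic activity, and the labels do not give how the allele was made or how many animals supplied the marrow.

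The array had 0 probe sets annotated to Irak4, so that gene gave no check of the strain labels. Of 23 macrophage marker genes on the array, 20 had a signal above the array median on all 12 arrays, and none was below it on all 12. The median signal was 24.2 to 26.9 on the KD arrays and 18.9 to 22 on the WT arrays, although the trimmed mean was 150 on every array. Replicate arrays had Spearman correlations of 0.932 to 0.959 over the 27931 tested probe sets, lowest for unstimulated KD cells. KD unstimulated replicate 1 had the highest ratio of 3′ to 5′ probe sets, at 1.35 for Gapdh and 3.03 for Actb on the log2 scale, a measure of RNA integrity. Markers of stromal cells, listed beside the results they move with, were above the array median on all 12 arrays for 14 of 17 genes.

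The response to LPS at 4 h differed between the strains for inflammatory cytokine genes such as Il6 and Il1b, which rose less in KD cells, and for Fos, Jun and other genes that were lowered more in WT cells. By limma with Benjamini-Hochberg adjustment at 0.05, 857 of 27931 probe sets (3.07%) had an interaction, 524 higher in KD (1.88%) and 333 lower (1.19%), and 440 of them were at least 2-fold. Taking 1 probe set per gene, the interaction was called for 509 of 12914 genes (3.94%), higher for 331 (2.56%) and lower for 178 (1.38%). In all 509 the 4 KD differences between an LPS array and an unstimulated array did not overlap the 4 WT differences, which also held for 33.2% of all genes. The 857 calls rest on a variance estimate that follows signal level. With 1 variance prior for all probe sets, 11 probe sets passed, of which 10 were among the 857, while 3501 had an unadjusted p under 0.05 against 4267 with the trend. Centring each array on its median gave 343 higher and 630 lower, since it shifted the median interaction of all probe sets to -0.05, against 0.07 as deposited. Leaving out 1 array gave 269 to 923 probe sets, and moved by over 1.5 times for 5 arrays. The count was 269 when KD LPS 4 h replicate 1 was left out and 543 for replicate 2 of that group. It was 285 and 556 when WT unstimulated replicate 1 or 2 was left out, and 274 for WT LPS 4 h replicate 1. In 134 of the 509 genes the call was made in each of the 12 fits that left out 1 array. Genes described from here on belong to those 134 unless the number of lost calls is given.

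The interaction came from the level under LPS in 203 genes, from the unstimulated level in 141 and from both in 165. A gene was placed by the share of its interaction contributed by the LPS 4 h term, with the limits at 66.7% and 33.3%. Among the 178 genes with a lower interaction, 95 were placed under LPS, 46 under both and 37 at the unstimulated level. Among the 331 with a higher interaction, 108 were placed under LPS, 119 under both and 104 at the unstimulated level. By calls, 102 of the 178 lower genes were lower in KD at LPS 4 h with no call without stimulation, and 46 were higher in KD without stimulation with no call at LPS 4 h. For the 331 higher genes, 130 were higher in KD at LPS 4 h with no call without stimulation, and 141 were lower in KD without stimulation with no call at LPS 4 h. In 54 genes, 19 lower and 35 higher, neither term passed by itself. Over all 12914 genes, KD minus WT was called for 893 (6.91%) at LPS 4 h, higher for 557 (4.31%) and lower for 336 (2.6%). Without stimulation it was called for 787 (6.09%), higher for 335 (2.59%) and lower for 452 (3.5%). In probe sets these were 1500 calls (5.37%) at LPS 4 h, 873 higher (3.13%) and 627 lower (2.24%), and 1465 (5.25%) without stimulation, 662 higher (2.37%) and 803 lower (2.87%).

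**Figure D1:**
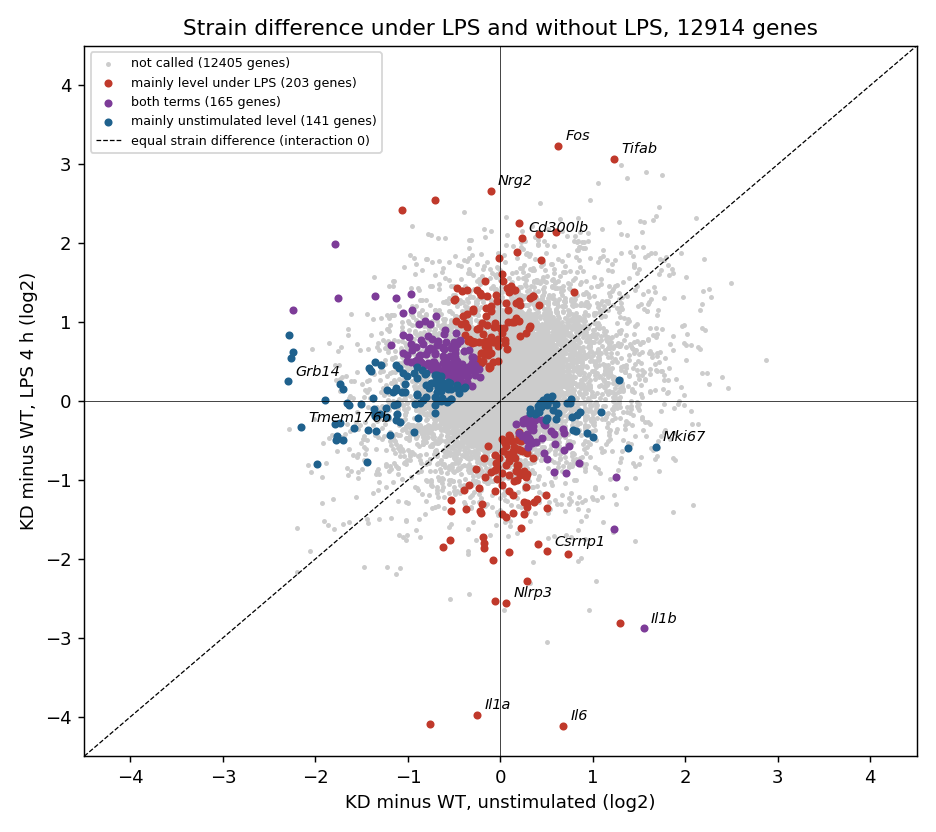
Each point is 1 of 12914 genes, with the KD minus WT difference without stimulation (log2) on the horizontal axis and the KD minus WT difference at LPS 4 h (log2) on the vertical axis. The vertical distance from the dashed diagonal is the interaction: Il6, Il1a and Il1b lie far below it, Fos far above it, and genes placed at the unstimulated level such as Tmem176b and Mki67 lie near the horizontal line at 0.

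Il6 and Il1b had the lowest interactions of the called genes. Il6, which encodes interleukin 6, had signals of 106 and 88.6 in KD cells at LPS 4 h and of 7.7 and 1.2 in unstimulated KD cells, against 1722 and 1779 in WT cells at LPS 4 h and 0.9 and 0.6 in unstimulated WT cells. Both strains rose and the arrays of the strains did not overlap at LPS 4 h, while the unstimulated WT values were below the pseudocount. On the log2 scale Il6 rose by 3.62 in KD cells and by 8.41 in WT cells, an interaction of -4.79 ± 0.50 (SE, limma adjusted p = 6.06e-05). That was a difference of -4.11 at LPS 4 h less a difference of 0.68 without stimulation, which was not called.

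Il1b, which encodes the precursor of interleukin 1 beta, had signals of 328.5 and 411.7 in KD cells at LPS 4 h and of 30.8 and 41.6 in unstimulated KD cells, against 2940.5 and 2547 in WT cells at LPS 4 h and 8.0 and 10.8 in unstimulated WT cells. The strains did not overlap in either condition, and their order was opposite: KD was lower at LPS 4 h and higher without stimulation. Its interaction of -4.43 ± 0.26 (adjusted p = 3.01e-08) was a called difference of -2.88 at LPS 4 h less a called difference of 1.55 without stimulation. The LPS 4 h term made up 65% of it, just inside the class in which both terms count. Il1a, which encodes interleukin 1 alpha, had signals of 80.6 and 94 in KD cells at LPS 4 h and of 1.1 and 22 in unstimulated KD cells, against 1395 and 1474 in WT cells at LPS 4 h and 9.6 and 10.3 in unstimulated WT cells. Its interaction was -3.72 ± 0.63 (adjusted p = 0.00292), with -3.98 at LPS 4 h and an uncalled -0.25 without stimulation. The unstimulated KD arrays of Il1a lay on either side of the WT arrays, and the log2 interaction of Il1a was -4.86 without KD unstimulated replicate 1 and -2.59 without replicate 2. With a pseudocount of 1 the Il1a call was lost, at -3.37 (adjusted p = 0.0587).

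The promoters of these 3 genes and of Fos, the gene with the smallest adjusted p among the higher interactions, are shown because their interactions run in opposite directions. Each is 250 bases before to 50 bases after the gene's start, 5′ to 3′ on the gene's strand, from RefSeq on GRCm38.p6. Il6 lies at chr5:30012864-30013163 on the plus strand, Il1b at chr2:129371090-129371389 on the minus strand, Il1a at chr2:129309923-129310222 on the minus strand and Fos at chr12:85473640-85473939 on the plus strand. Capitals mark matches to the NF-κB consensus, to the TATA box TATAAA or to the AP-1 site TGANTCA, searched on both strands.
Il6: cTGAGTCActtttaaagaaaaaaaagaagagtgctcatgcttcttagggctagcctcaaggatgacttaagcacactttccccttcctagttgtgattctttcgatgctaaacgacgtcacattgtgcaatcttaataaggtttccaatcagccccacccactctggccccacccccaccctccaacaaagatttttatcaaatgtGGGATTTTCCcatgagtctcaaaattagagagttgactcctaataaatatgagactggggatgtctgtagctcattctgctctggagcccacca
Il1b: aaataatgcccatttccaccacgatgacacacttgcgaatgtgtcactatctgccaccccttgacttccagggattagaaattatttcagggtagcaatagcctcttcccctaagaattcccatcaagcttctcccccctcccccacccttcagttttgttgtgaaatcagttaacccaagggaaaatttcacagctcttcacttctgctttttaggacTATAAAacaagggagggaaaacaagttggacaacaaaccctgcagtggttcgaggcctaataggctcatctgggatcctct
Il1a: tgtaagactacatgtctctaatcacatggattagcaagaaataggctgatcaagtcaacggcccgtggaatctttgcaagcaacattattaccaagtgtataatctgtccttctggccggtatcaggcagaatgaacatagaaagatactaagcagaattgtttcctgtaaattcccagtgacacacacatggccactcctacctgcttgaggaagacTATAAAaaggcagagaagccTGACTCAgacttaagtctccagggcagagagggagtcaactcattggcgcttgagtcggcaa
Fos: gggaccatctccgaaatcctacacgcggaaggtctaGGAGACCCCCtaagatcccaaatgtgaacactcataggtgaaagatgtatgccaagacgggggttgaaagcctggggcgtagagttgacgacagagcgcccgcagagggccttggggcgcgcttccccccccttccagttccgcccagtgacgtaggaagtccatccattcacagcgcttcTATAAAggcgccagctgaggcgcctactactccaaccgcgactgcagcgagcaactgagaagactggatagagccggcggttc
Il6 had an AP-1 match at -249 to -243 and an NF-κB match at -44 to -35 from the start. Il1b had a TATA match at -31 to -26, and Il1a a TATA match at -32 to -27 and an AP-1 match at -12 to -6. Fos had an NF-κB match on the opposite strand at -214 to -205 and a TATA match at -33 to -28. None of these matches overlapped another. Of 27025 promoters in the table, 8.18% held the NF-κB consensus, 14.2% the TATA box and 7.93% the AP-1 site. Among the 95 genes lower under LPS, 76 had an entry, and 12 (15.8%) held the NF-κB consensus and 12 (15.8%) the AP-1 site, against 10.2% and 5.42% of the 10403 tested genes with an entry. Among the 108 genes higher under LPS, 78 had an entry, of which 7 (8.97%) held the NF-κB consensus and 4 (5.13%) the AP-1 site. Of the genes placed at the unstimulated level, 113 had an entry, of which 12 (10.6%) held the NF-κB consensus and 11 (9.73%) the AP-1 site. The TATA box was held by 11.8% of the genes lower under LPS and 10.3% of those higher. It was held by 9.73% of those at the unstimulated level, against 7.68% of tested genes. These shares describe letters in the window and were not tested.

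**Figure D2:**
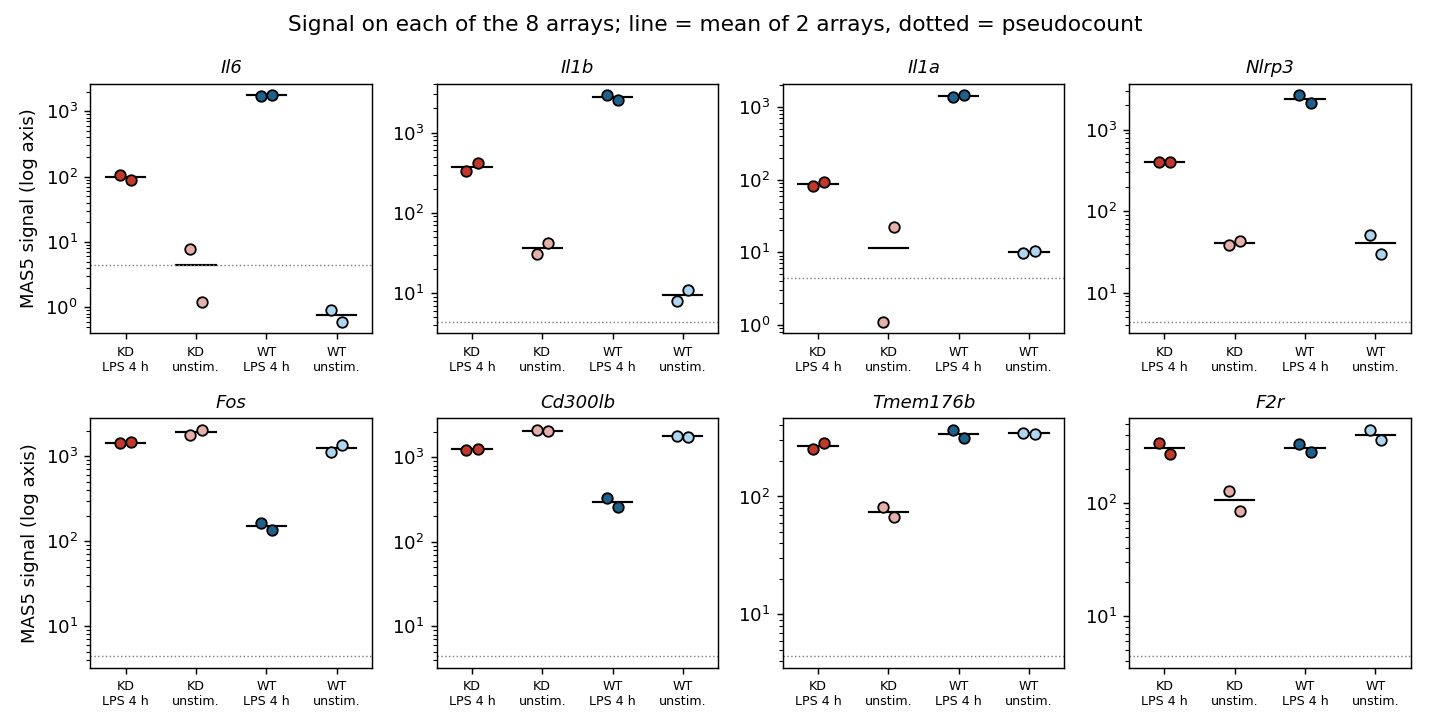
MAS5 signal (log axis) of 8 genes on each of the 8 arrays, with the line at the mean of 2 arrays and the dotted line at the pseudocount of 4.4. In the cytokine panels KD arrays at LPS 4 h lie between the unstimulated arrays and the WT arrays at LPS 4 h, for Fos and Cd300lb the WT arrays at LPS 4 h are the lowest, and for Tmem176b and F2r only the unstimulated KD arrays are low.

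Of 19 tested inflammatory cytokine genes, 7 had a lower interaction and 0 a higher one, against 1.38% and 2.56% of all genes, and the median interaction was -1.79, against 0.08 over all genes. The list's median difference between KD and WT was -1.42 at LPS 4 h and 0.09 without stimulation. Tnf, which encodes tumour necrosis factor, had signals of 1625 and 1526 in KD cells at LPS 4 h and of 126.6 and 190.1 in unstimulated KD cells, against 4868 and 4727 in WT cells at LPS 4 h and 133.5 and 131.3 in unstimulated WT cells. The strains overlapped without stimulation and lay apart under LPS, and the interaction was -1.83 ± 0.20 (adjusted p = 8.88e-05). Tnfsf9, which encodes the ligand of the costimulatory receptor 4-1BB, had an interaction of -2.47 ± 0.33, and Lif, which encodes leukemia inhibitory factor, one of -2.01 ± 0.38. Csf2, which encodes the growth factor GM-CSF, was the remaining call at -2.56 ± 0.53, and its call was lost in 4 of the 12 fits: without WT unstimulated replicate 1, without either WT array at LPS 4 h and without KD LPS 4 h replicate 1. Members that did not pass included Il10 at -2.11 and Il23a at -2.63, while Il12b (0.38), Ifnb1 (0.44) and Il1rn (-0.27) lay nearer to the median of all genes.

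Chemokine genes had a median interaction of -0.61, with 3 of 20 lower and 0 higher, against 1.38% of all genes lower and 2.56% higher. Ccl4, which encodes the chemokine MIP-1 beta, had signals of 1797 and 1809 in KD cells at LPS 4 h and of 369.7 and 358.4 in unstimulated KD cells, against 3469 and 3403 in WT cells at LPS 4 h and 326.6 and 271.8 in unstimulated WT cells. The KD arrays were below the WT arrays under LPS and above them without it, with an interaction of -1.21 ± 0.19 (adjusted p = 0.00167). Ccl3, which encodes MIP-1 alpha, had an interaction of -0.67 ± 0.11 to which the unstimulated level added, with -0.31 at LPS 4 h and 0.36 without stimulation. Ccl9 (-0.65 ± 0.14) came from the unstimulated level, 0.60 higher in KD, and its call was lost without WT unstimulated replicate 1, WT LPS 4 h replicate 1 or KD LPS 4 h replicate 1. Ccl5, a chemokine gene also induced through interferon signalling, had an interaction of 0.02, Cxcl10 of -0.34 and Cxcl2 of -0.66, none called.

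Among NF-κB subunits and feedback regulators, 5 of 18 genes were lower and 0 higher, against 1.38% and 2.56% of all genes, with a median of -0.33. Tnfaip3, which encodes the ubiquitin-editing inhibitor A20, had signals of 649.2 and 731.5 in KD cells at LPS 4 h and of 91.9 and 153.1 in unstimulated KD cells, against 1893 and 1814 in WT cells at LPS 4 h and 138.1 and 137.1 in unstimulated WT cells. Its interaction of -1.22 ± 0.23 (adjusted p = 0.00575) lay in the level under LPS, since the unstimulated arrays of the strains overlapped. Nfkbiz, which encodes the nuclear co-regulator I-kappa-B zeta that Il6 induction needs, had -0.88 ± 0.16. The calls of Tnip1 (-0.86 ± 0.17), an A20-binding protein, and of Rel (-1.64 ± 0.37), the c-Rel subunit, were lost in 2 of the 12 fits (without WT unstimulated replicate 1 or KD LPS 4 h replicate 1) and in 6. Nfkbia, which encodes the inhibitor I-kappa-B alpha, and Sod2, which encodes mitochondrial superoxide dismutase, had -0.18 and -0.14 and were not called.

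Interactions of inflammatory effector genes went both ways, with 7 of 19 lower and 3 higher, against 1.38% and 2.56% of all genes. Between the strains at LPS 4 h, 10 were called lower in KD and 0 higher, against 2.6% and 4.31% of all genes. Nlrp3, which encodes the sensor of the NLRP3 inflammasome, had signals of 402.5 and 400.1 in KD cells at LPS 4 h and of 39 and 43.3 in unstimulated KD cells, against 2671 and 2115 in WT cells at LPS 4 h and 51 and 29.7 in unstimulated WT cells. It rose by 3.16 in KD cells and by 5.78 in WT cells, and the unstimulated groups overlapped, giving an interaction of -2.62 ± 0.29 (adjusted p = 8.88e-05). Serpinb2, which encodes plasminogen activator inhibitor 2, had -2.22 ± 0.41, and Ptges, which encodes the inducible prostaglandin E synthase, -1.61 ± 0.23. Hp (1.24 ± 0.25), Saa3 (0.66 ± 0.14) and Ptgs2 (0.54 ± 0.13) had a higher interaction, with calls lost in 3, 2 and 5 of the 12 fits. They encode haptoglobin, a serum amyloid protein and cyclooxygenase 2. For these 3 genes the KD minus WT difference without stimulation was -1.58, -1.44 and -0.93. Each was larger in size than the interaction, so KD was below WT at LPS 4 h as well, by less. Ptgs2 was also the gene with another probe set called in the opposite direction.

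Interferon-induced genes, which background knowledge assigns largely to the TRIF arm, had a median interaction of -0.24, against 0.08 over all genes, with 4 of 31 lower and 0 higher, against 1.38% and 2.56%. Irf1, which encodes a transcription factor, had signals of 416.7 and 623.4 in KD cells at LPS 4 h and of 134.9 and 171.5 in unstimulated KD cells, against 1801 and 1590 in WT cells at LPS 4 h and 178.3 and 169.9 in unstimulated WT cells. It had the lowest called interaction of the list, -1.53 ± 0.23 (adjusted p = 0.00145), all of it under LPS. Parp14, which encodes an ADP-ribosyltransferase, had -1.31 ± 0.15, a difference of -0.56 at LPS 4 h less 0.75 without stimulation. Ifih1, which encodes the RNA sensor MDA5, had -0.95 ± 0.17. Oasl1 (-1.03 ± 0.21), an inhibitor of Irf7 translation, lost its call without WT LPS 4 h replicate 1 or KD LPS 4 h replicate 1. Ifit1 (-0.14), Ifit3 (0.02), Rsad2 (0.12), Isg20 (0.11) and Irf7 (-0.16) had values near the median of all genes and were not called.

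Other genes lower in KD under LPS were of mixed function. U90926, a transcript of no stated function in the annotation used, had signals of 10.4 and 19.8 in KD cells at LPS 4 h and of 15.3 and 13.8 in unstimulated KD cells, against 335.1 and 300.3 in WT cells at LPS 4 h and 18.8 and 40.1 in unstimulated WT cells. It rose by 3.32 in WT cells with no call in KD cells, where the conditions overlapped, with an interaction of -3.32 ± 0.53 (adjusted p = 0.00178). Csrnp1, which encodes a nuclear protein inducible by AXIN1, had signals of 45.8 and 54.6 in KD cells at LPS 4 h and of 50.2 and 41.1 in unstimulated KD cells, against 212.4 and 186.1 in WT cells at LPS 4 h and 28.7 and 33 in unstimulated WT cells. Its KD arrays overlapped between conditions, and the interaction was -2.40 ± 0.28 (adjusted p = 0.000128). Trim36, a ubiquitin ligase gene, had -2.68 ± 0.41. Cish (-4.11 ± 0.99), a STAT5 feedback inhibitor gene with KD signals of 1.6 and 12.4 at LPS 4 h, lost its call in 6 of the 12 fits.

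Over all genes, 6.43% rose and 6.23% fell with LPS in KD cells, and 7.84% rose and 13.0% fell in WT cells. Across the 178 genes with a lower interaction, 83 rose in both strains, 66 rose in WT with no call in KD and 22 fell in KD with no call in WT. In the 83 that rose in both, the median rise was 1.33 in KD cells and 2.37 in WT cells on the log2 scale, and the median KD to WT ratio of the log2 responses was 52.6%. Among the 331 genes with a higher interaction, 144 fell in WT with no call in KD, 97 rose in KD with no call in WT, and 54 fell in both with median changes of -0.67 in KD cells and -1.83 in WT cells. Another 25 were called up in KD and down in WT, and 3 of the lower genes down in KD and up in WT. A response called in 1 strain with no call in the other is not by itself a difference, so these counts cover only genes whose interaction passed. In the 83 and the 54 genes that choice fixes the smaller change in KD cells. The ratio of 52.6% is therefore not an estimate for induced genes at large.

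Of the 108 genes higher in KD under LPS, 101 fell with LPS in WT cells and 47 in KD cells, against 13.0% and 6.23% of all genes. They were chosen on the same arrays for a WT level below KD at LPS 4 h, which favours a fall in WT. Fos, which encodes an AP-1 subunit and is an immediate early gene, had signals of 1416 and 1467 in KD cells at LPS 4 h and of 1773 and 2049 in unstimulated KD cells, against 163 and 135.8 in WT cells at LPS 4 h and 1117 and 1360 in unstimulated WT cells. WT cells at LPS 4 h stood far below the other 3 groups. Fos fell by 0.40 in KD cells, a call lost in 3 of the 12 fits, and by 3.01 in WT cells. The interaction was 2.61 ± 0.17 (adjusted p = 9.22e-08). KD was higher by 3.24 at LPS 4 h and by a called 0.63 without stimulation, which is subtracted. Jun, which encodes the partner of Fos, had signals of 1457 and 1474 in KD cells at LPS 4 h and of 2038 and 1953 in unstimulated KD cells, against 633.8 and 679.9 in WT cells at LPS 4 h and 1912 and 1862 in unstimulated WT cells. Its interaction was 1.07 ± 0.12 (adjusted p = 9.68e-05), from the level under LPS. In the list of immediate early genes these were the 2 higher calls of 23 (2.56% of all genes), with Csrnp1, Maff and Dusp1 lower (1.38% of all genes), of which Maff (-1.62 ± 0.43) and Dusp1 (-0.999 ± 0.255) lost their calls in 9 and 8 of the 12 fits. Egr1 (-0.02), Atf3 (-0.09) and Myc (0.21) were not called.

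Cd300lb, which encodes an activating immunoglobulin-like receptor of myeloid cells, had signals of 1237 and 1253 in KD cells at LPS 4 h and of 2126 and 2029 in unstimulated KD cells, against 328.5 and 261.9 in WT cells at LPS 4 h and 1816 and 1728 in unstimulated WT cells. It fell in both strains and less in KD, with an interaction of 1.84 ± 0.15 (adjusted p = 3.55e-06). Hhex, a homeobox transcription factor gene, had 1.71 ± 0.18, and Maf, a transcription factor gene of resident macrophages, 1.18 ± 0.13. Maf had signals of 2768 and 2609 in KD cells at LPS 4 h and of 3352 and 2897 in unstimulated KD cells, against 1096 and 1174 in WT cells at LPS 4 h and 3024 and 2930 in unstimulated WT cells, and its fall was called in WT but not in KD. Tifab, which encodes a TRAF6-interacting protein, had 1.84 ± 0.33, with KD higher by 3.07 at LPS 4 h and by 1.23 without stimulation. Nrg2, which encodes neuregulin 2, had signals of 85.6 and 59.1 in KD cells at LPS 4 h and of 78 and 85.4 in unstimulated KD cells, against 8.5 and 6.6 in WT cells at LPS 4 h and 94.6 and 82.1 in unstimulated WT cells, giving 2.77 ± 0.48. Among sterol and lipid genes, 3 of 21 were higher and 0 lower, against 2.56% and 1.38% of all genes. Dhcr7, which encodes the last enzyme of cholesterol synthesis, had 1.47 ± 0.18 from the level under LPS, Scd2, a fatty acid desaturase gene, 1.25 ± 0.20 from the unstimulated level, and Scd1 (0.53 ± 0.14) lost its call in 11 of the 12 fits.

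The 104 genes with a higher interaction from the unstimulated level had low signals in unstimulated KD cells. Tmem176b, which encodes a membrane protein of myeloid cells, had signals of 254.2 and 284.4 in KD cells at LPS 4 h and of 81.6 and 66.7 in unstimulated KD cells, against 368.1 and 311.3 in WT cells at LPS 4 h and 348.2 and 337.6 in unstimulated WT cells. The unstimulated KD arrays were the lowest, with a KD minus WT difference of -2.15, and no LPS response was called in WT. The interaction was 1.82 ± 0.22 (adjusted p = 0.000166). F2r, which encodes the thrombin receptor PAR1, had signals of 343.4 and 273.3 in KD cells at LPS 4 h and of 127.5 and 85.5 in unstimulated KD cells, against 330.2 and 281.1 in WT cells at LPS 4 h and 445.8 and 360.7 in unstimulated WT cells. The strains overlapped at LPS 4 h, where the difference was 0.01, and the interaction of 1.90 ± 0.31 (adjusted p = 0.00231) came from -1.90 without stimulation. Rspo2, which encodes a Wnt agonist, had 1.75 ± 0.25, with unstimulated KD signals of 127.8 and 129.8 against 377.2 and 275.2 in unstimulated WT cells. Of the 104 genes of this kind with a higher interaction, 72 rose with LPS in KD, against 6.43% of all genes. In WT 5 rose and 37 fell, against 7.84% and 13.0% of all genes. These genes were chosen on the same arrays for a low unstimulated KD level, so the rise in KD follows largely from that choice.

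As a list, stromal cell markers moved in the same way, though not each member did. Of 16 tested, 6 had a higher interaction and 0 a lower one, against 2.56% and 1.38% of all genes, with a median of 0.92. At LPS 4 h 3 were higher in KD and 2 lower (median 0.13), against 4.31% and 2.6% of all genes. Without stimulation 8 of 16 were lower and 0 higher (median -0.72), against 3.5% and 2.59% of all genes. Sparc, a matricellular glycoprotein gene, had signals of 1625 and 1632 in KD cells at LPS 4 h and of 1010 and 933.9 in unstimulated KD cells, against 1520 and 1275 in WT cells at LPS 4 h and 1633 and 1537 in unstimulated WT cells, an interaction of 0.93 ± 0.15. Sparc was placed at the unstimulated level. Col6a1, a collagen gene, was placed under LPS, with 1.49 ± 0.23. That was 1.01 at LPS 4 h less an uncalled -0.48 without stimulation. The LPS 4 h term made up -8.05% of the interaction for Col1a2, 38.1% for Col3a1 and 60.9% for Thbs2. The calls of these 3 genes were lost in 6, 6 and 3 of the 12 fits. The summed signal of the 16 genes in KD cells was 5180 and 6321 without stimulation, 6735 and 8310 at LPS 1 h and 9454 and 9459 at LPS 4 h. In WT cells it was 8950 and 9222 without stimulation, 9059 and 9295 at LPS 1 h and 8451 and 8915 at LPS 4 h. The unstimulated KD arrays were thus the lowest of the 12. In bulk samples fewer cells of a type and less RNA per cell cannot be told apart, and the part of these cells in the 104 genes was not tested. Among other cell types, the interaction was called for 0 of 3 T and NK cell, 0 of 5 neutrophil, 0 of 4 dendritic cell, 0 of 3 erythroid and 0 of 3 mast cell markers, with Ebf1 (1.51 ± 0.35, lost in 4 of the 12 fits) the single call among 3 B cell markers. Between the strains, Ebf1 was also lower in KD without stimulation, by a difference of -1.09. The other B cell markers did not share this. Without stimulation the 3 tested had a median of 0.24, with 1 called lower and 0 higher, against 3.5% and 2.59% of all genes. Of 8 B cell markers on the array, 3 were above the array median on 0 arrays. The neutrophil marker S100a8, which encodes a calprotectin subunit, was higher in KD in each condition, by 1.29 without stimulation, 1.33 at LPS 1 h and 1.13 at LPS 4 h. Its interaction of -0.16 was not called. The other neutrophil markers did not share this: of the 5 tested, 1 was called higher in KD and 0 lower in each condition. All genes had 2.59%, 0.743% and 4.31% called higher. The median of the 5 was 0.26 without stimulation, -0.28 at LPS 1 h and -0.19 at LPS 4 h. S100a9 was above the array median on 0 arrays. The part of S100a8 in the results was not tested.

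**Figure D3:**
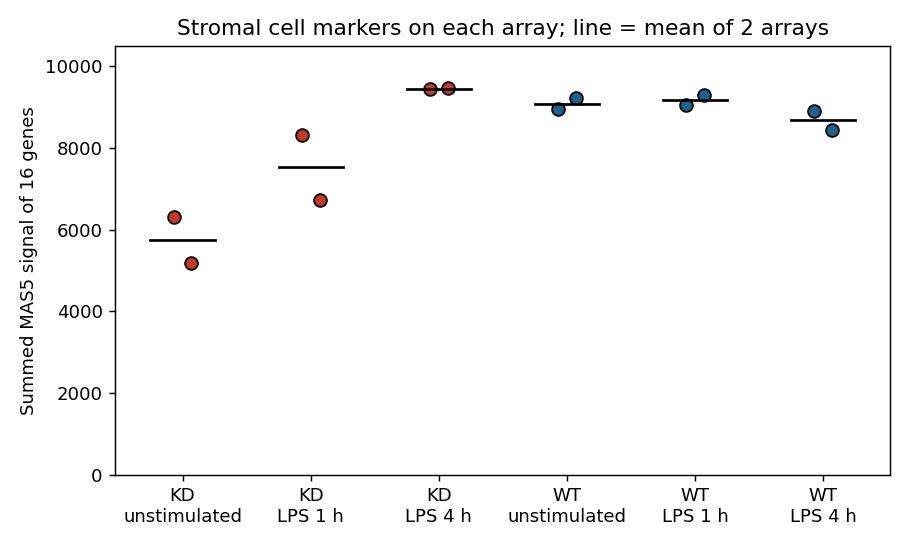
Summed MAS5 signal of 16 stromal cell marker genes on each of the 12 arrays, with the line at the mean of 2 arrays, for KD and WT cells without stimulation, at LPS 1 h and at LPS 4 h. The 2 unstimulated KD arrays, at 5180 and 6321, lie below all WT arrays, and the KD arrays at LPS 4 h, at 9454 and 9459, lie above them.

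The 37 lower genes at the unstimulated level were higher in KD before LPS. Mki67, a marker of dividing cells, had signals of 227.1 and 209.1 in KD cells at LPS 4 h and of 173.1 and 142.9 in unstimulated KD cells, against 332.6 and 321.7 in WT cells at LPS 4 h and 31.1 and 67.4 in unstimulated WT cells. KD was higher without stimulation by 1.68 and the interaction was -2.26 ± 0.34 (adjusted p = 0.00133). Of 27 cell cycle genes, 1 was lower (Mki67) and 1 higher (Ccnd1, lost in 7 of the 12 fits), against 1.38% and 2.56% of all genes. The list's median interaction was 0.29, with 16 of 27 above 0, and Mki67 at -2.26 was the lowest of the list. The list's KD minus WT median was 0.85 at LPS 4 h, where 10 were called higher and 0 lower, against 4.31% and 2.6% of all genes. It was 0.74 without stimulation, where 9 were called higher and 0 lower, against 2.59% and 3.5% of all genes. Srgn, which encodes the granule proteoglycan serglycin, had signals of 3366 and 3551 in KD cells at LPS 4 h and of 2864 and 2851 in unstimulated KD cells, against 3523 and 3530 in WT cells at LPS 4 h and 1666 and 1726 in unstimulated WT cells. The strains overlapped at LPS 4 h, and the interaction of -0.78 ± 0.11 (adjusted p = 0.000615) came from the higher unstimulated KD level. Rtp4, an interferon-induced gene, had -1.15 ± 0.22 and Tmem171, a membrane protein gene, -1.47 ± 0.25, in both cases mainly from the unstimulated level. Hspa5 (-0.997 ± 0.189), which encodes the endoplasmic reticulum chaperone BiP, was the single call among 18 genes of the unfolded protein response and was lost without WT LPS 4 h replicate 1 or KD LPS 4 h replicate 1. Of 11 ribosomal protein genes 7 were higher in KD without stimulation, against 2.59% of all genes, and 2 (Rpl4 and Rps3, lost in 8 and 6 of the 12 fits) had a lower interaction, against 1.38% of all genes.

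In 165 genes both terms contributed, so by construction the order of the strains under LPS was the reverse of that without it. Arhgap29, which encodes a GTPase-activating protein, had signals of 559 and 474.6 in KD cells at LPS 4 h and of 239.3 and 206.9 in unstimulated KD cells, against 299.1 and 297.1 in WT cells at LPS 4 h and 420.8 and 391.5 in unstimulated WT cells. KD was lower than WT without stimulation and higher under LPS, with no overlap in either, and the interaction was 1.63 ± 0.20 (adjusted p = 0.000145). Tnfrsf11b, which encodes the RANKL decoy receptor osteoprotegerin, had 2.33 ± 0.37, a difference of 1.36 at LPS 4 h less -0.97 without stimulation. Hoxa10, a homeobox gene, had 2.17 ± 0.34, which was 1.11 less -1.06. Peli1, which encodes a ubiquitin ligase of the IRAK pathway, had -1.13 ± 0.17, a difference of -0.66 at LPS 4 h less 0.47 without stimulation. Of the 3 lower calls among 26 Toll-like receptor pathway genes (1.38% of all genes), only that of Peli1 was made in each of the 12 fits. Cd14 (-0.53 ± 0.12), the LPS co-receptor gene, and Tab2 (-0.52 ± 0.14), a TAK1-binding protein gene, lost theirs in 4 and 9 fits.

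**Figure D4:**
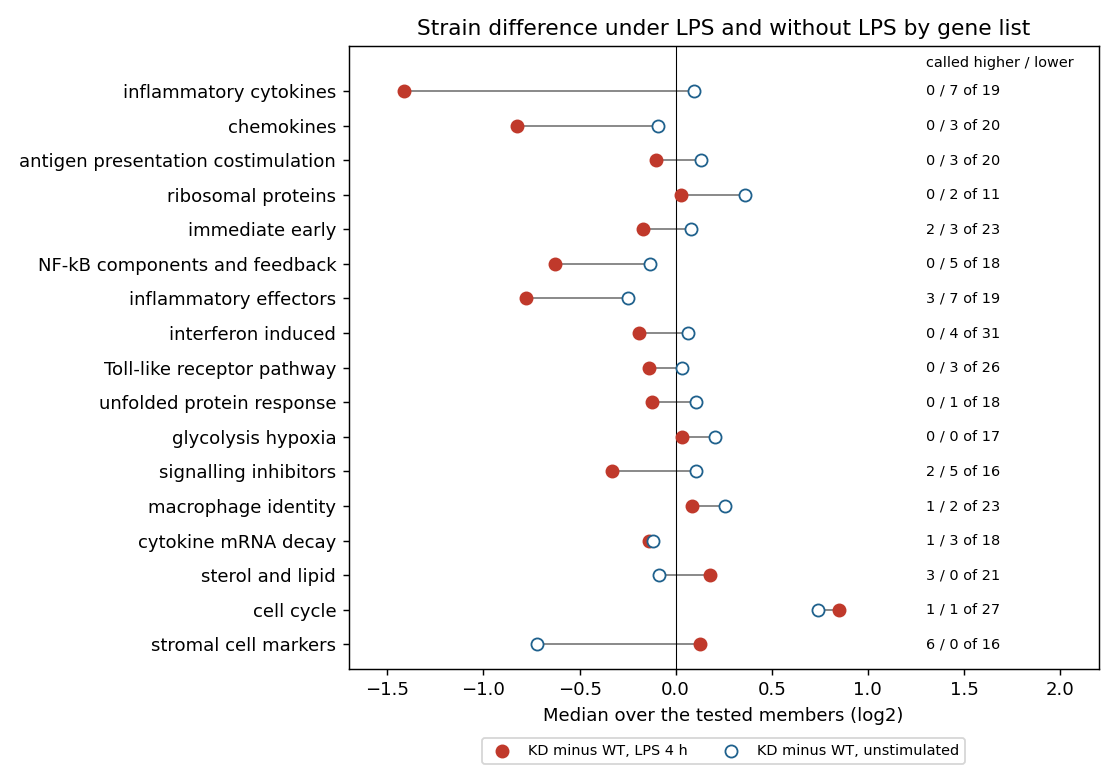
Median KD minus WT difference (log2) of 17 gene lists at LPS 4 h (filled points) and without stimulation (open points), with the number of members whose interaction was called higher and lower at the right. The inflammatory cytokine list lies at -1.42 at LPS 4 h and at 0.09 without stimulation, the cell cycle list is high in both conditions, and the stromal list lies at 0.13 at LPS 4 h and at -0.72 without stimulation.

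The largest positive interactions belonged to genes with low signals and most of them lost calls. Nxn (3.78 ± 0.80), which encodes the redox protein nucleoredoxin, had signals of 55.2 and 21.7 in KD cells at LPS 4 h and of 6.0 and 5.1 in unstimulated KD cells, against 4.3 and 6.9 in WT cells at LPS 4 h and 35.3 and 25.1 in unstimulated WT cells, and lost its call without WT unstimulated replicate 1, WT LPS 4 h replicate 1 or KD LPS 4 h replicate 1. AU041480 (3.48 ± 0.88) and Top3a (3.39 ± 0.78), a topoisomerase gene, lost theirs in 7 and 5 fits, and Cxxc5 (3.12 ± 0.78), Slc2a8 (3.07 ± 0.82), Celsr3 (2.87 ± 0.77) and Rai2 (2.81 ± 0.70) in 6 to 11. Gm11517 (3.26 ± 0.49) kept its call in each of the 12, at 2.66 without KD unstimulated replicate 2 and 3.87 without replicate 1, with signals of 101.1 and 153 in KD cells at LPS 4 h and of 142 and 59.1 in unstimulated KD cells, against 24.7 and 12.2 in WT cells at LPS 4 h and 153.3 and 153.6 in unstimulated WT cells.

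The 4 arrays at LPS 1 h enter neither term, so they give the KD minus WT difference in other cultures at another time. There, 204 of 12914 genes (1.58%) differed, and 45.2% of all genes were lower in KD. Of the 95 genes lower under LPS at 4 h, 76 (80%) were lower in KD at 1 h, 19 by a call (0.836% of all genes) and 0 called higher, with a median of -0.33. At LPS 1 h Il1b had signals of 334 and 372.2 in KD cells against 700.3 and 857.2 in WT cells, and the difference of -1.13 was called, as it was for Il1a (-2.01), Nlrp3 (-1.07), Tnf (-0.86) and Tnfaip3 (-1.13). Il6, with 41.4 and 37.9 in KD cells against 40.6 and 63.2 in WT cells, differed by -0.33 and was not called. Of the 108 genes higher under LPS at 4 h, 74 (68.5%) were higher in KD at 1 h, against 54.8% of all genes, and 7 were called higher (0.743% of all genes). Fos had 2537 and 2915 in KD cells against 3230 and 3558 in WT cells at 1 h, a difference of -0.32 that was not called and opposite in sign to that at 4 h. Of the 104 higher genes placed at the unstimulated level, 76 (73.1%) were lower in KD at 1 h, with a median of -0.20 and 9 called lower. For the 37 lower genes at the unstimulated level 23 (62.2%) were higher in KD at 1 h and 2 were called. Genes of a class share arrays and are not independent replicates, so these shares have no test.

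**Figure D5:**
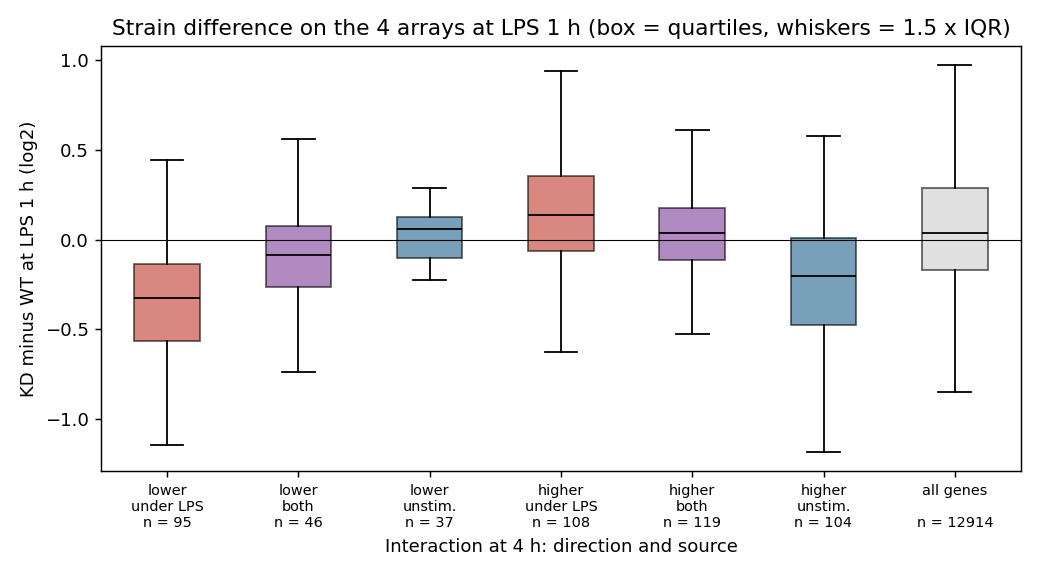
KD minus WT difference (log2) on the 4 arrays at LPS 1 h for genes grouped by the direction and source of their interaction at 4 h, and for all 12914 genes (box at the quartiles, line at the median, whiskers to 1.5 times the interquartile range, values beyond them not drawn). Genes lower under LPS have a median of -0.33, genes higher from the unstimulated level of -0.20, and all genes of 0.04.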

How the data were processed

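RNA of 12 macrophage cultures was hybridised to 1-colour Affymetrix arrays. The deposited intensity values were MAS5 signals, per the submitters' processing notes, and each array's mean without the top and bottom 2% was 150. MAS5 noise is large at low signal. Signals were taken as log2(signal + 4.4), the added 4.4 being the values' 20th percentile. Tests covered probe sets brighter than the median of their array on 2 or more arrays (27931 of 45101, 64 controls left out). Of all probe sets 34958 had 1 gene symbol, 932 several and 9211 none. Each gene was represented by its brightest tested probe set, after preferring identifiers without the suffixes _x_at and _s_at. limma 3.58.1 in R 4.3.3 fitted 6 group means with a trended variance prior (6 residual degrees of freedom), and adjusted p-values were Benjamini-Hochberg over all tested probe sets. The method was tested on simulated data. Probe sets of 300 called genes had others tested, all of the same sign in 193, while in 52 another probe set was called the same way and in 1 the opposite way.

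Genes were named as the 12 with the highest and lowest interactions without overlap, up to 4 called members of each of 23 lists, and the 8 largest per source class. Genes called in all 12 fits that left out 1 array, some list members that did not pass, Sparc, Hp, Saa3, Ptgs2 and the further list members named were added after their values were seen. The members and lists were chosen with earlier results of these data known. Replicate numbers did not pair the arrays: deviations of same-numbered arrays correlated at -0.0682 to 0.0401. The alternatives were quantile normalization, centring each array on its median, no filter, a stricter filter, pseudocounts of 1 and of the overall median (23.4), a prior without a trend, the 8 arrays alone, a replicate block, and leaving out each array.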

Additional observations from a re-analysis of the deposited data

Results flagged for a closer look

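In 9 named genes the responses of the strains were called in opposite directions and the interaction passed limma's adjusted threshold. H2-K1, a class I histocompatibility gene, fell in KD cells and rose in WT cells, with an interaction of -0.68 that was lost without WT LPS 4 h replicate 1. The other 8 rose in KD cells and fell in WT cells: Cryab (1.59), Arhgap29 (1.63), Crim1 (1.78), Ldb3 (1.84), Adam23 (1.84), Gas1 (1.87), Il7 (1.96) and Nxn (3.78). The calls of Il7 and Nxn were lost in 6 and 3 of the 12 fits that left out 1 array. Cryab had 1 other tested probe set, whose interaction was of the opposite sign and not called. All 8 were lower in KD cells than in WT cells without stimulation, where the stromal marker sum was also lowest, and the part of stromal cells in them was not tested.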

How the results depend on the processing

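With a variance prior without a trend, the interaction was called for 11 probe sets (4 higher, 7 lower), KD minus WT at LPS 4 h for 504 (313 higher, 191 lower) and without stimulation for 69 (25 higher, 44 lower). The genes then called were placed under LPS in 6 cases, at the unstimulated level in 0 and in both in 1, and 3501 probe sets had an unadjusted interaction p under 0.05. The named calls included Il6, Il1b, Fos, Csrnp1, Trim36 and Cd300lb. Centring arrays on the median gave 343 higher and 630 lower interactions, and 529 higher and 978 lower differences at LPS 4 h. Without a filter 91 genes were placed at the unstimulated level, where more probe sets entered the adjustment. Leaving out 1 array, the interaction count ranged from 269 to 923 (165 to 616 higher, 90 to 381 lower), that at LPS 4 h from 538 to 1696 (301 to 981 higher, 208 to 716 lower) and that without stimulation from 271 to 1523 (109 to 686 higher, 162 to 909 lower), with 89 to 210 genes placed under LPS, 35 to 189 at the unstimulated level and 47 to 175 in both. The count at LPS 4 h was 538 without WT LPS 4 h replicate 1 and 555 without KD LPS 4 h replicate 1, and that without stimulation was 271 without WT unstimulated replicate 1. All of the 857 interactions that a setting tested kept their sign in it, which in most settings could not change. A change of prior or filter, the replicate block or leaving out LPS 1 h arrays does not alter the estimate. In the called genes, whose differences did not overlap, leaving out 1 array cannot reverse the sign. Over the named genes and all settings, 385 interaction values, 124 values at LPS 4 h and 143 without stimulation lost a call, while 1776, 2008 and 1987 kept their side of the threshold or their value. The replicate block gave 767 probe sets, 751 of them among the 857. A pseudocount of 1 ended the calls of Il1a and of others already lost when an array was left out. With 2 arrays a group, only large differences relative to the spread could pass, and values near the pseudocount of 4.4 understate folds.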
